A study of Homo sapiens with 4 samples.

Results

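The genes described here are 10 genes of transforming growth factor beta (TGF-β) signalling: the ligands TGFB1, TGFB2, TGFB3 and INHBA, the receptors TGFBR1, TGFBR2 and TGFBR3, the intracellular mediators SMAD3 and SMAD7, and the target gene TGFBI. They were found by exact match of the gene name that the array design gives each probe. All 10 were on the array, out of 25992 gene names, with 11 of 34127 probes and 38 of 43118 spots that are not controls. They were measured in human proximal tubular cells (HPTCs), the epithelium that recovers most of the filtrate in the kidney, on 4 arrays, 2 for HK-2 and 2 for RPTEC/TERT1 by their labels. HK-2 cells carry papillomavirus oncogenes and RPTEC/TERT1 cells carry the telomerase gene TERT, so each label names 1 immortalised line. All cells went without serum and supplements for 24 h and then received IL-1β (10 ng/mL), an inflammatory cytokine, together with Empa (500 nM), an inhibitor of the glucose transporter SGLT2, for 24 h. No array of control cells or of cells given only IL-1β was analysed here. The values describe stimulated cells and give no measure of the effect of IL-1β or of Empa. The lines grew in different media, so line and medium cannot be told apart.

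TGF-β is secreted in a latent form, bound to a propeptide and to the matrix, and becomes active once it is released from them. The active ligand binds the type II receptor TGFBR2, which recruits and phosphorylates the type I receptor TGFBR1, and this kinase phosphorylates SMAD2 and SMAD3, which enter the nucleus with SMAD4. In the kidney this pathway is best known as a driver of matrix deposition and fibrosis, and tubular cells both secrete the ligands and respond to them.

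Each array is one library of RNA labelled with Cy3, and the value used is the log2 ratio of the processed spot signal to the 75th percentile of that array, called the level. A level of 0 is the brightness of that percentile, and a common floor of 2.42% of it corresponds to a level of -5.37. A probe counts as measured on an array where the scanner software marked its signal as well above background. The 75th percentile of the signal ranged from 393 to 748 over the 4 arrays, and 59.2% to 64.9% of spots were well above background. No spot of the 10 genes was saturated. The precision of each mean is limited by the 2 arrays behind it.

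The arrays did not pair by their labels. Over 17928 genes (not independent replicates) the levels of HK-2 replicate 1 correlated with those of RPTEC/TERT1 replicate 2 at a Pearson r of 0.980, and those of HK-2 replicate 2 with RPTEC/TERT1 replicate 1 at 0.976. Within a label r was 0.865 for HK-2 and 0.855 for RPTEC/TERT1. Replicate 1 of both labels was scanned on one date and replicate 2 of both on another, and r between arrays that share a date was 0.861 and 0.875. Whether samples were exchanged between the labels was not tested. Cell line names below are therefore those of the labels, and each value is given array by array. Every array came from a different slide, and the effects of slide and array cannot be told apart.

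Markers of kidney epithelium were present on all arrays. Of 8 such genes 6 were well above background on all 4 arrays, PAX8 and KRT18 among them, while PAX2 and CDH1 were measured only on RPTEC/TERT1 replicate 2 and HK-2 replicate 1. Of 12 proximal tubule markers 5 were well above background on all 4 arrays, LRP2 and SLC5A2 (SGLT2) among them, and 3 (CUBN, SLC22A6 and HNF4A) on none. The summed signal of the 12 was 317%, 271%, 311% and 342% of the 75th percentile, in the order HK-2 replicate 1, HK-2 replicate 2, RPTEC/TERT1 replicate 1 and RPTEC/TERT1 replicate 2. Such sums use the floored levels, so each marker at the floor adds 2.42%. Values for the 4 arrays follow this order throughout.

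Of the 10 genes, 6 were well above background on all 4 arrays (TGFB1, TGFB2, TGFBR1, TGFBR2, SMAD3 and SMAD7). INHBA and TGFBR3 were measured on 2 arrays each, TGFB3 on none, and TGFBI was bright on all 4 but with its single spot marked as non-uniform on 2 of them. The 8 genes with a value on every array and a measured signal on at least 2 entered the test between labels. INHBA and TGFBR3 passed that filter only through the arrays on which they were high.

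**Figure D1:**
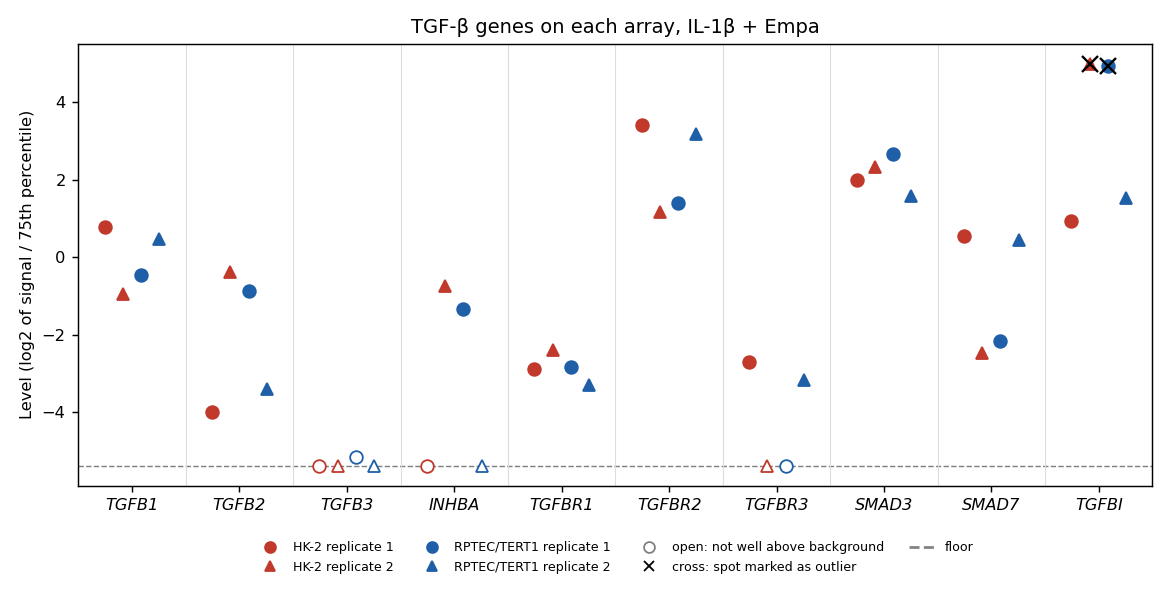
Level of each of the 10 genes on each array (y axis, log2 of signal over the 75th percentile of the array; red HK-2, blue RPTEC/TERT1, circles replicate 1, triangles replicate 2). Open symbols are signals not well above background, crosses mark spots flagged as outliers, and the dashed line is the floor at -5.37; in TGFB2, INHBA, TGFBR2, TGFBR3 and SMAD7 HK-2 replicate 1 sits beside RPTEC/TERT1 replicate 2.

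TGFB1, TGFB2, TGFB3 and INHBA encode the ligands. TGFB1 is the isoform most studied in renal fibrosis. INHBA encodes the subunit that forms activin A, a ligand that uses its own type II receptors and the same SMAD2 and SMAD3. The probes of TGFB1 and INHBA were each spotted 10 times on every array, so their sequences are shown as the stretches of transcript that gave the most repeated measurements among the ligands. The TGFB1 probe spans chr19:41838142-41847802 (minus strand, GRCh37), a stretch longer than its 60 bases and thus interrupted by an intron, and the INHBA probe lies at chr7:41729246-41729305 (minus strand, GRCh37). Both are in the sense of the transcript and written 5′ to 3′.
TGFB1 probe A_24_P79054: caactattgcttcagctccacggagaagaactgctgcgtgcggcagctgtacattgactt
INHBA probe A_23_P122924: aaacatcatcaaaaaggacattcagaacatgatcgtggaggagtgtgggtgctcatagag

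The level of TGFB1 was 0.78, -0.97, -0.47 and 0.47 on the 4 arrays. It was higher on RPTEC/TERT1 replicate 2 and HK-2 replicate 1 than on the other arrays, and the labels overlapped. The 10 spots of an array had an SD of 0.058 to 0.20 on the log2 scale, beside 1.75 between the HK-2 arrays and 0.94 between the RPTEC/TERT1 arrays. The SD over spots is technical and does not hold the variation between samples. The processed signal itself averaged 676, 385, 355 and 594.

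INHBA had the widest range of the 8 genes tested. Its 10 spots were all well above background on RPTEC/TERT1 replicate 1 and HK-2 replicate 2, at levels of -1.34 and -0.75, and none was on the other arrays, where both levels lay at the floor. The mean signal of the 10 spots was 4.23, 445, 193 and 2.92, which is 1.07%, 59.5%, 39.6% and 0.682% of the 75th percentile. Thus each label held 1 array with INHBA and 1 without a measurable signal. Against the floor, INHBA was at least 24.6-fold higher on HK-2 replicate 2 than on HK-2 replicate 1, and at least 16.3-fold higher on RPTEC/TERT1 replicate 1 than on RPTEC/TERT1 replicate 2.

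TGFB2 followed the same order as INHBA. Its single probe (A_24_P402438, chr1:218614784-218614843, plus strand, GRCh37) gave levels of -3.99, -0.37, -0.87 and -3.40, from signals of 24.7, 578, 266 and 40.6. It was measured on all 4 arrays, 12.3-fold higher on HK-2 replicate 2 than on replicate 1 and 5.76-fold higher on RPTEC/TERT1 replicate 1 than on replicate 2. TGFB1 and TGFB2 thus ran in opposite orders over the same arrays. TGFB3 (A_23_P88404, chr14:76424904-76424963, minus strand, GRCh37) had signals of 8.65, 11.2, 13.8 and 5.53, or 1.29% to 2.82% of the 75th percentile, and was not well above background on any array.

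**Figure D2:**
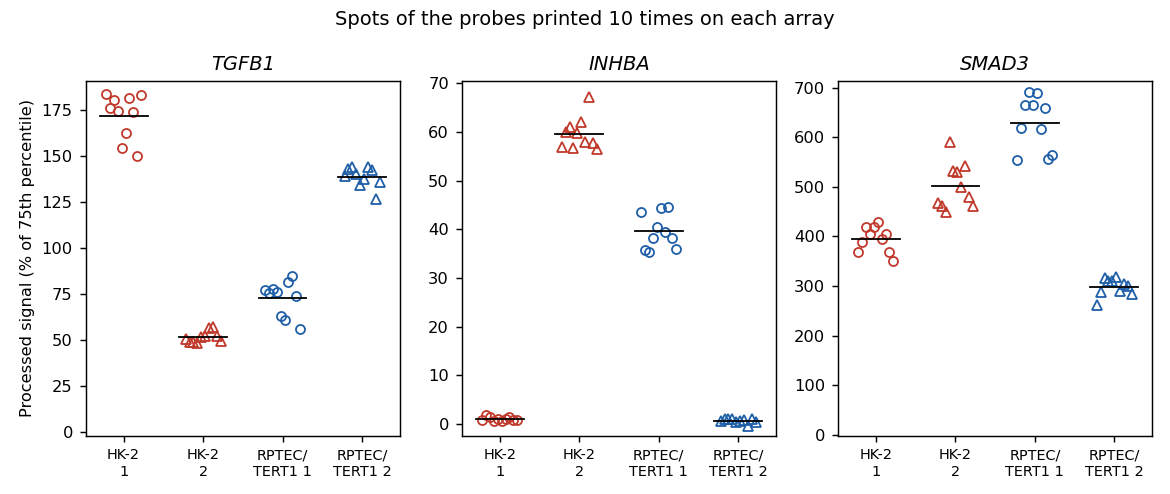
Processed signal of every spot of the 3 probes spotted 10 times (y axis, percent of the 75th percentile of the array; each panel has its own scale), by array; black bars are means over spots. INHBA spots lie at 39.6% and 59.5% on average on RPTEC/TERT1 replicate 1 and HK-2 replicate 2 and near 0 on the others, and spots of one array lie close together.

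TGFBR2, TGFBR1 and TGFBR3 encode the receptors. TGFBR2, the ligand-binding type II kinase, was read by A_23_P211957 (chr3:30735163-30735222, plus strand, GRCh37) at levels of 3.42, 1.17, 1.40 and 3.18. HK-2 replicate 1 was 4.75-fold higher than HK-2 replicate 2, and RPTEC/TERT1 replicate 2 was 3.43-fold higher than RPTEC/TERT1 replicate 1. Its order over the arrays was the reverse of that of TGFB2. A second probe named TGFBR2 (A_33_P3313825, chr3:30703057-30703116, plus strand, GRCh37), designed on a predicted transcript that the RefSeq table used here does not list, was not well above background on any array.

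TGFBR1, the type I kinase (A_33_P3331451, chr9:101916322-101916381, plus strand, GRCh37), varied least among the 8 genes. Its levels were -2.88, -2.39, -2.82 and -3.29, and arrays of a label lay 0.50 (HK-2) and 0.47 (RPTEC/TERT1) apart. In the deposited log2 values the HK-2 difference, replicate 2 minus replicate 1, turned from 0.50 to -1.17, where the median of all genes tested was itself at -0.73. TGFBR3 encodes betaglycan, a co-receptor without kinase activity that presents ligand, TGF-β2 above all, to the type II receptor. Its probe (A_23_P200780, chr1:92148888-92148947, minus strand, GRCh37) was well above background on RPTEC/TERT1 replicate 2 and HK-2 replicate 1, at levels of -3.17 and -2.69, and at the floor on the other arrays. The signals were 60.9, 9.52, 9.38 and 47.5, so TGFBR3 was at least 6.41-fold higher on HK-2 replicate 1 than on replicate 2 and at least 4.58-fold higher on RPTEC/TERT1 replicate 2 than on replicate 1.

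SMAD3 and SMAD7 act inside the cell, SMAD3 as the receptor-activated mediator and SMAD7 as an inhibitor that binds the activated type I receptor and is itself induced by TGF-β. SMAD3, read by 10 spots of A_23_P48936 (chr15:67487391-67487450, plus strand, GRCh37), had levels of 1.98, 2.32, 2.65 and 1.57. The spots of an array had an SD of 0.084 to 0.13. The HK-2 arrays differed by 0.34 and the RPTEC/TERT1 arrays by 1.07, and in both labels the higher array was the one with more INHBA. SMAD7 (A_23_P55518, chr18:46446782-46446841, minus strand, GRCh37) had levels of 0.54, -2.47, -2.17 and 0.44. Of the genes measured on all 4 arrays with an unflagged spot, it ranked behind TGFB2 alone in its range, with an 8.05-fold difference between the HK-2 arrays and a 6.12-fold difference between the RPTEC/TERT1 arrays.

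TGFBI encodes a secreted matrix protein named for its induction by TGF-β. Its single spot (A_23_P156327, chr5:135399343-135399402, plus strand, GRCh37) gave signals of 751, 23600, 14700 and 1250, and the scanner software marked it as non-uniform on RPTEC/TERT1 replicate 1 and HK-2 replicate 2, the brighter arrays. Its level was 0.93 on HK-2 replicate 1 and 1.54 on RPTEC/TERT1 replicate 2. With the marked spots kept, the level was 4.98 on HK-2 replicate 2 and 4.92 on RPTEC/TERT1 replicate 1, a difference of 16.5-fold between the HK-2 arrays and of 10.4-fold between the RPTEC/TERT1 arrays. Whether non-uniformity of the spot changed the signal was not tested.

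The question that the labels allow is whether these genes differed between the lines under IL-1β and Empa. None of the 8 genes tested differed between the labels with limma and Benjamini-Hochberg adjustment over all 16468 genes tested (adjusted p = 1 for each), against a background of 0% of all genes called. At an unadjusted p under 0.05 limma counted 23 of all genes and 0 of the 8. For all genes this is fewer than that threshold would pass if the labels made no difference. The spread within a label holds the split of the arrays across the labels, so label differences were set against a wide spread. As means over 2 arrays, HK-2 and RPTEC/TERT1 lay at -0.10 ± 1.2 and 0.00 ± 0.67 for TGFB1 (SD, n = 2 each), at -2.18 ± 2.6 and -2.14 ± 1.8 for TGFB2, and at 2.30 ± 1.6 and 2.29 ± 1.3 for TGFBR2. For SMAD7 they were -0.97 ± 2.1 and -0.87 ± 1.8, and for SMAD3 2.15 ± 0.24 and 2.11 ± 0.76. In these 5 genes the SD within a label exceeded the difference between the labels. TGFBR1 was the exception, at -2.64 ± 0.35 and -3.05 ± 0.33, with a difference, HK-2 minus RPTEC/TERT1, of 0.42 (SE 0.48) that was larger than both SDs. The difference was 0.30 (SE 2.1) for INHBA and 0.24 (SE 1.3) for TGFBR3. With the deposited log2 values it was 1.12 for INHBA, 0.81 for TGFB2 and 0.66 for TGFBR1, so the order of these differences depends on the values used. These p-values do not show that the lines were alike. The SE was 0.48 to 2.1, and since the arrays paired across the labels, a difference between labels may not be one between the lines.

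No gene of the 8 had both HK-2 arrays above both RPTEC/TERT1 arrays, which 4.36% of all genes tested had, and none had both below, which 2.81% had. Within a scan date the labels lay apart, but in opposite directions on the 2 dates. For TGFB2, HK-2 minus RPTEC/TERT1 was -3.12 in replicate 1 and 3.03 in replicate 2. For TGFBR2 the values were 2.02 and -2.01, and for SMAD7 2.71 and -2.91. For TGFB1 they were 1.25 and -1.44, for INHBA -4.03 and 4.62, for TGFBR3 2.68 and -2.20, for SMAD3 -0.67 and 0.75, and for TGFBR1 -0.07 and 0.90. In 6 of the 8 genes the difference passed 1 log2 unit in both replicates with opposite signs, against 27.4% of all genes tested, and in none with the same sign, against 0.206%. The 6 include INHBA and TGFBR3, which entered the 8 only through the arrays on which they were high.

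Within each label 1 array was set against the other, which allows no test. The HK-2 arrays were more than 1 log2 unit apart in 6 of the 8 genes (INHBA, SMAD7, TGFB1, TGFB2, TGFBR2 and TGFBR3), against 34% of all genes tested. The RPTEC/TERT1 arrays were in 6 of the 8 (the same list with SMAD3 in place of TGFB1), against 40.4%. INHBA and TGFBR3 entered the 8 only through the arrays on which they were high. These counts and the medians that follow thus come partly from that filter. Among members well above background on all 4 arrays the count was 4 of 6 in each label. The share over all genes was not counted for that filter. The median absolute difference of the 8 genes was 2.46 between the HK-2 arrays and 1.99 between the RPTEC/TERT1 arrays, where all genes tested had 0.67 and 0.79. Between arrays that cross the labels the 8 genes differed less, with medians of 0.36 for HK-2 replicate 1 against RPTEC/TERT1 replicate 2 and 0.38 for HK-2 replicate 2 against RPTEC/TERT1 replicate 1 (all genes tested 0.22 and 0.30). The sizes depended on the processing and the directions of INHBA, TGFB2 and TGFBR3 did not. On the log2 scale the HK-2 arrays were 4.62 apart in INHBA. They were 1.93 apart with normexp background correction followed by quantile normalization (called normexp below) and 0.41 in the deposited log2 values. In TGFB2 they were 3.62 apart, but 1.89 and 0.64 with these alternatives. For TGFBR3, HK-2 replicate 2 minus replicate 1 was -2.68, with -0.83 under normexp and -2.48 in the deposited values. In the deposited values the median of this difference over all genes tested was itself -0.73, beside -0.06 in the setting used. The deposited differences of these 3 genes hold that offset.

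Among the HK-2 arrays INHBA and TGFB2 were over 1 log2 unit higher on replicate 2 (16.4% of all genes tested) and SMAD7, TGFB1, TGFBR2 and TGFBR3 on replicate 1 (17.7%). Among the RPTEC/TERT1 arrays INHBA, SMAD3 and TGFB2 were higher on replicate 1 (18.4%) and SMAD7, TGFBR2 and TGFBR3 on replicate 2 (22.1%). In both labels INHBA and TGFB2 were over 1 log2 unit higher on RPTEC/TERT1 replicate 1 and on HK-2 replicate 2 than on the other array of their label, as were 11.4% of all genes tested. SMAD7, TGFBR2 and TGFBR3 were higher on RPTEC/TERT1 replicate 2 and on HK-2 replicate 1, as were 12.3%. INHBA and TGFBR3 were among the 8 only through the arrays on which they were high. None of the 8 was higher on the same replicate number in both labels, as 0.984% were. Thus the ligands TGFB2 and INHBA stood high on the arrays where the type II receptor, the co-receptor and the inhibitory SMAD stood low. Fewer cells of one kind and less RNA per cell cannot be told apart in these bulk samples. Some marker lists of other cell types also moved with this order. Of 7 fibroblast and mesangium markers, 4 of which the pathway lists also hold, none was well above background on all arrays and COL1A2, COL3A1, PDGFRA and PDGFRB on none, but DCN and LUM were measured on RPTEC/TERT1 replicate 1 and HK-2 replicate 2 only. The summed signal of the 7 was 18.6%, 197%, 150% and 17.8% of the 75th percentile, and that of the 8 kidney epithelium markers 7930%, 2070%, 2030% and 7930%. Markers at the floor add 2.42% each, so the sums of 18.6% and 17.8% are mostly floor. Low sums of the other lists below hold floor values as well. Of 6 leukocyte markers PTPRC, CD14 and CD68 were well above background on all arrays, with sums of 104%, 149%, 198% and 94.1%. Of 5 endothelial markers CDH5 was on all and VWF, KDR and TEK on none, with sums of 41.9%, 29.1%, 22% and 27.8% that did not follow this order. Of 6 markers of loop, distal tubule and collecting duct UMOD was on all and SLC12A3, CALB1, AQP2 and ATP6V1B1 on none. SLC12A1 was measured only on RPTEC/TERT1 replicate 2 and HK-2 replicate 1, at levels of -0.1 and -0.51. The sums of these 6 markers were 92.4%, 26.7%, 26.7% and 120%, higher on the same arrays as those of kidney epithelium. Of 4 podocyte markers 3 were on all and WT1 on none. Their sums of 90.9%, 91.7%, 92.3% and 47.2% did not follow this order. The part of these other cell types in the result was not tested.

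**Figure D3:**
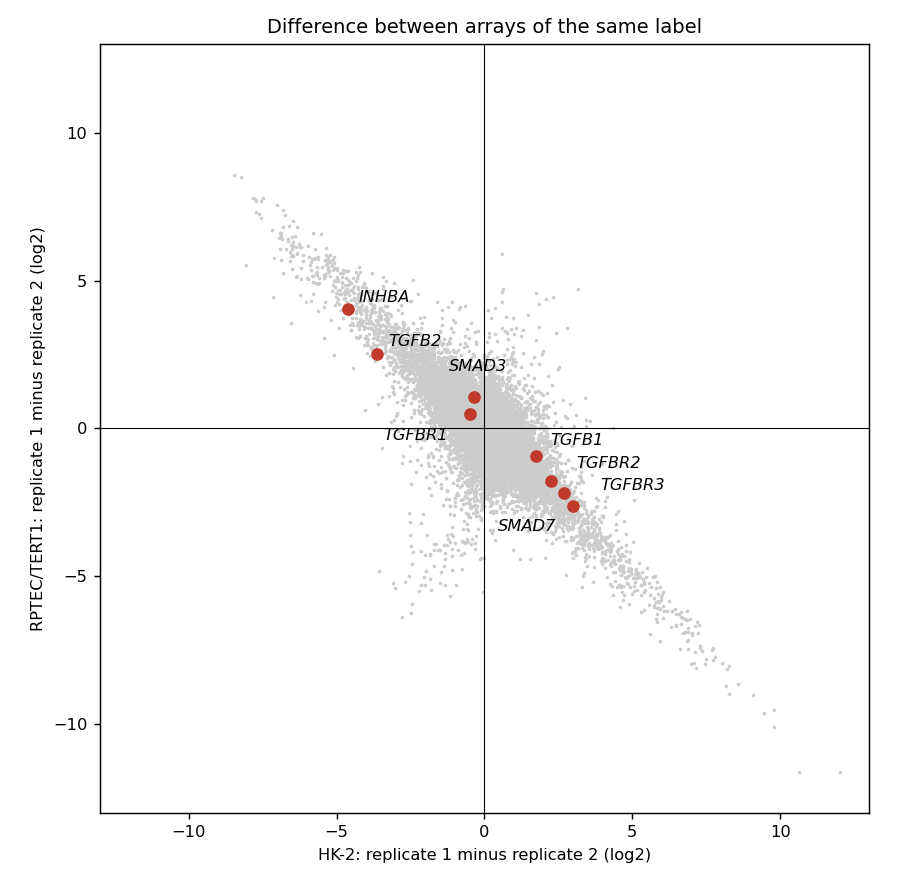
Difference between the arrays of a label, replicate 1 minus replicate 2, for HK-2 (x axis, log2) and RPTEC/TERT1 (y axis, log2); grey points are the 16468 genes tested and red points the 8 genes of TGF-β signalling among them. INHBA and TGFB2 lie at the upper left and SMAD7, TGFBR3 and TGFBR2 at the lower right, so the replicate that was higher in one label was lower in the other.

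The promoters of TGFB2, INHBA and SMAD7 are shown because these genes had the widest ranges over the arrays among the tested genes and differ in direction. Each is the 250 bases before the most upstream start that the RefSeq table lists, from GRCh38.p14, 5′ to 3′ in the sense of the gene, with the letters CAGAC, a sequence that SMAD3 and SMAD4 bind, in capitals. Their positions are chr1:218345086-218345335 (plus strand) for TGFB2, chr7:41703091-41703340 (minus strand) for INHBA and chr18:48950966-48951215 (minus strand) for SMAD7.
TGFB2: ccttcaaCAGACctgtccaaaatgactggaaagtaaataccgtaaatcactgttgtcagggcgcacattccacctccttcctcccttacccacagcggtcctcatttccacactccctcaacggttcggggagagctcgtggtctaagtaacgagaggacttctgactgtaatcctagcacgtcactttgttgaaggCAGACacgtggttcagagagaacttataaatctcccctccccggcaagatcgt
INHBA: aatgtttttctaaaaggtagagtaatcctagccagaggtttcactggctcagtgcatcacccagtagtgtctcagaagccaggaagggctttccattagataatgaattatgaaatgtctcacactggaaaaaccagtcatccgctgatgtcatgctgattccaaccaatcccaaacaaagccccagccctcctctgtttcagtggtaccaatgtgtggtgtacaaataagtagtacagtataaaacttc
SMAD7: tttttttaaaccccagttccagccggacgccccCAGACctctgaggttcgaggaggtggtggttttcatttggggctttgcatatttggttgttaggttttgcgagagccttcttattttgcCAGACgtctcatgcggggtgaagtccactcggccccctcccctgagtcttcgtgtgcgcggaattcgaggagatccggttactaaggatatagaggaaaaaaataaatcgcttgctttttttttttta

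CAGAC, searched on both strands, stood 243 and 53 bases before the start of TGFB2 and 217 and 128 bases before that of SMAD7, and was not in the INHBA window. It was in 3 of the 10 promoters (TGFB2, TGFB3 and SMAD7) and in 37.9% of 27305 RefSeq promoters of this length. TGANTCA, the motif of AP-1, searched the same way and without a match that overlaps CAGAC here, was in none of the 10 and in 6.57% of all. TGFB2 and SMAD7, which ran in opposite orders over the arrays, both held CAGAC. These are matches of letters in 1 window, without any measurement of binding.

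The other genes of the pathway were taken from 7 lists of 116 genes, of which 84 were tested. None of the 84 was called between the labels in either direction by limma with Benjamini-Hochberg adjustment, and 0 had an unadjusted p under 0.05. Their median difference, HK-2 minus RPTEC/TERT1, was -0.03, beside 0.02 over all genes tested. Within the HK-2 label 41 of 84 were over 1 log2 unit apart (34% of all genes tested), and within RPTEC/TERT1 41 of 84 (40.4%). In both labels together, 21 were higher on RPTEC/TERT1 replicate 2 and HK-2 replicate 1 (12.3% of all genes tested), and 8 on RPTEC/TERT1 replicate 1 and HK-2 replicate 2 (11.4%).

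Of 28 further ligands, 13 were tested. Of these, 8 differed by over 1 log2 unit between the HK-2 arrays (34% of all genes tested) and 10 between the RPTEC/TERT1 arrays (40.4%). GDF15, a stress-induced ligand of the family, had levels of 7.10, 5.10, 4.50 and 7.11. BMP2, which signals through SMAD1 and SMAD5, had 0.55, -1.38, -1.44 and 0.87. Both were high on RPTEC/TERT1 replicate 2 and HK-2 replicate 1, as TGFBR2 was. AMH, at -3.15, -1.0, -1.71 and -0.48, did not follow that order, nor did INHBC, at -2.18, -3.56, -3.17 and -3.38.

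Of 11 further receptors 6 were tested. Of these, 3 differed by over 1 log2 unit between the HK-2 arrays (34% of all genes tested) and 1 between the RPTEC/TERT1 arrays (40.4%). BMPR2, the type II receptor of BMP ligands, had levels of -1.73, -3.28, -3.04 and -2.22. ACVR2A and ACVR2B, which bind activins, had ranges smaller than that of TGFBR2, with ACVR2A at -2.31, -3.19, -2.94 and -2.61 and ACVR2B at -2.02, -1.63, -1.10 and -2.20. ACVR1, a type I receptor, had levels of -0.65, -1.93, -1.34 and -1.01.

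All 6 further SMADs were tested. SMAD6, the inhibitory SMAD of the BMP branch, had levels of 1.41, -2.04, -2.97 and 1.41, high on the same arrays as SMAD7, and was 11.0-fold apart in HK-2 and 20.9-fold in RPTEC/TERT1. SMAD2, which the TGF-β and activin receptors phosphorylate, and SMAD4, the common partner, stayed within ranges of 0.94 and 0.76. SMAD1 had levels of 0.65, 0.24, -0.31 and 0.93. SMAD9, a mediator of the BMP branch named here after its values were seen, had -1.52, -4.78, -5.35 and -1.43, so wide ranges were not limited to the inhibitory SMADs.

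Of 13 genes of latency and activation 11 were tested. ITGB8, the integrin subunit that with αv releases active TGF-β, had levels of 4.08, 0.20, 0.48 and 3.91. FURIN, the protease that cleaves the TGF-β precursor, had -1.33, -3.39, -3.26 and -1.40. Both were high on the arrays where TGFB1 was high. EMILIN1, a matrix glycoprotein that limits maturation of the TGF-β precursor, took another order at 0.67, 2.0, -0.99 and 3.42, and LTBP3, a latent TGF-β binding protein, had -2.71, -2.0, -1.68 and -3.09.

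Of 15 extracellular antagonists 10 were tested, with median absolute differences of 2.19 between the HK-2 arrays and 2.32 between the RPTEC/TERT1 arrays. All genes tested had 0.67 and 0.79. BAMBI, a pseudoreceptor without a kinase domain that is a known target of the pathway, had levels of 2.80, -1.38, -2.0 and 2.43. FSTL3, which binds activin, varied little (0.58, 0.24, 0.67 and 0.52), as did the BMP antagonist NOG, at -2.32, -2.72, -2.16 and -2.55. TWSG1, another BMP antagonist, had 0.67, -0.08, -0.19 and 0.50, higher on the same arrays as BAMBI. Its arrays lay 0.75 (HK-2) and 0.70 (RPTEC/TERT1) apart, near the medians of all genes tested. The 17 tested of 18 intracellular regulators had medians of 0.39 and 0.51, the smallest of the lists for HK-2. Among them DAB2, an adaptor that links receptors to SMADs and to endocytosis, had 1.92, -0.54, -0.77 and 1.83. TRIM33, which ubiquitinates SMAD4, had -0.17, 0.77, 0.52 and -0.38, LEMD3, which binds SMADs at the inner nuclear membrane, had -0.02, 1.26, 0.60 and 0.21, and FKBP1A, which binds the resting type I receptor, had 1.47, 0.02, 0.60 and 1.31.

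Of 25 target genes 21 were tested, 13 of them over 1 log2 unit apart in HK-2 (34% of all genes tested) and 12 in RPTEC/TERT1 (40.4%). ID2 and ID3, inhibitors of basic helix-loop-helix factors and targets mainly of BMP, had levels of 3.35, -1.35, -1.97 and 3.68 and of 0.99, -2.15, -2.50 and 1.38. CDH2, which encodes N-cadherin, ran the other way at -2.36, 1.5, 1.76 and -2.48. COL4A1, a basement membrane collagen chain, had 3.01, -0.06, 1.07 and 2.43. The target genes named here thus divided between the order of SMAD7 (ID2, ID3 and COL4A1) and that of TGFB2 (CDH2).

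**Figure D4:**
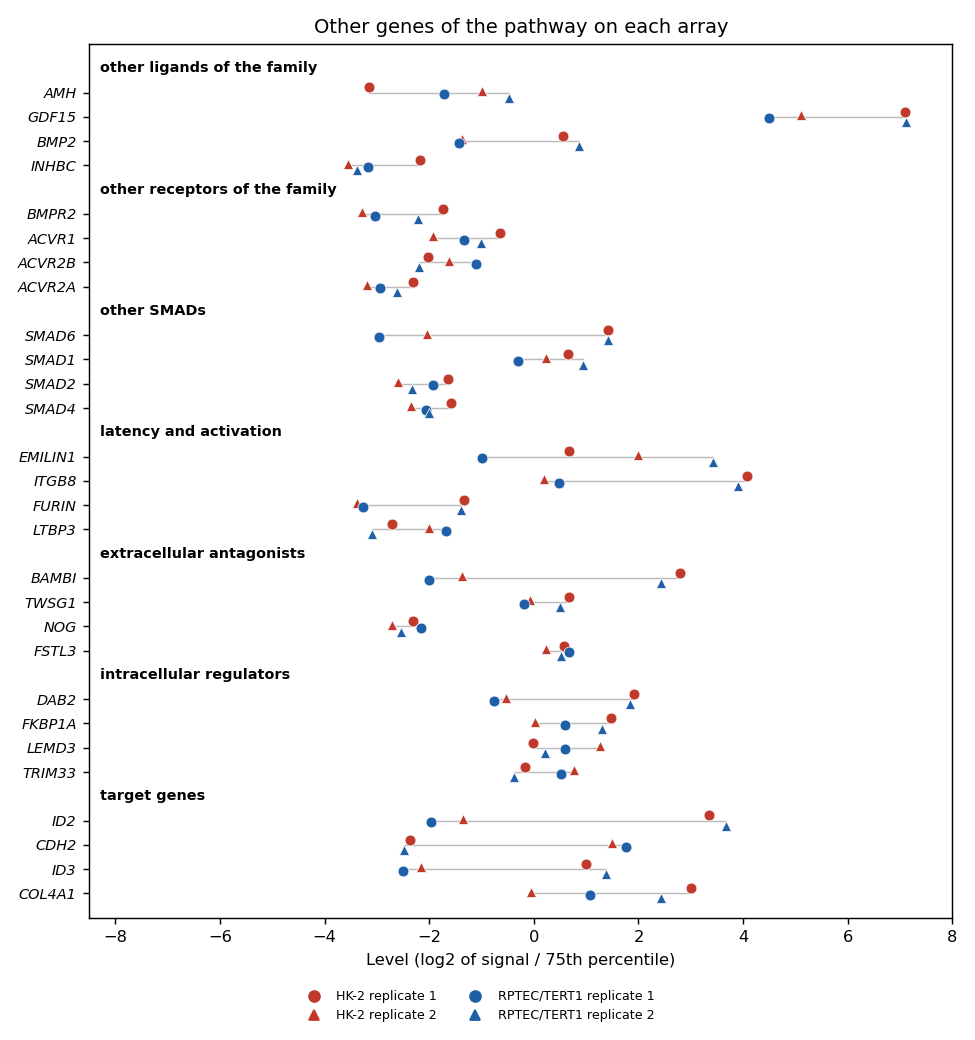
Levels (x axis, log2 of signal over the 75th percentile) on the 4 arrays of the 28 pathway genes named by rule, grouped by list; colours and shapes as for the 10 genes, and a grey line spans the range of each gene. RPTEC/TERT1 replicate 2 (blue triangles) and HK-2 replicate 1 (red circles) fall together in SMAD6, ITGB8, BAMBI, ID2 and CDH2, whereas the arrays of FSTL3 and NOG lie close together.

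The genes most like INHBA, the gene with the widest range, were sought among 13778 genes well above background on all 4 arrays, by the root mean square distance of levels centred on each gene's mean over the 4 arrays. MMS22L (0.0889), RBP7 (0.117) and CDKN3 (0.131) were the nearest, and 93 genes lay within 0.5. INHBA was at the floor on 2 arrays, where its signal lay below that floor, so these distances hold for the floored levels only and other genes could be nearer to its true pattern. For TGFBR1, the gene with the smallest range, the nearest were TRUB1 (0.0398), KCMF1 (0.0496) and SPRR2F (0.0556), but 6694 genes lay within 0.5, so that pattern was shared with much of the array.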

How the data were processed

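Gene expression was measured on 4 arrays of HPTCs given IL-1β and Empa, grouped by the cell line in the sample labels. The methods call the replicates biological duplicates and name no test. For RNA isolation the labels give the RNeasy kit and the methods innuPREP. The authors deposited spot intensities from Feature Extraction 9.5.3.1, background-subtracted and detrended but not scaled between arrays. They also deposited log2 values in a series table, with medians of 8.33, 7.14, 6.75 and 6.72 on HK-2 replicates 1 and 2 and RPTEC/TERT1 replicates 1 and 2. No source used here says how these were made, so their centring and scaling are unknown, and they served as an alternative only.

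Signals of non-control spots, without outliers, were scaled to the 75th percentile of their array, floored and taken to log2. Spots were averaged per probe, and a gene is the mean of its probes that passed the background mark on 1 or more arrays. The floor is the highest, over arrays, of the lowest scaled signal well above background. An "at least" fold sets the level of the bright array against it. The labels were compared by limma 3.58.1 (R 4.3.3, lmFit and eBayes) over the 16468 genes with a value on all 4 arrays and well above background on at least 2, with Benjamini-Hochberg adjustment at 0.05. The step was tested on simulated data in which the arrays differed by label, unlike these arrays, which paired across the labels. That run does not bear on the lack of calls here. Probe positions are those of the files (GRCh37), and no annotation of that build was used. The accessions of 10 of the 11 probes were in the RefSeq table of GRCh38.p14. Alternatives were normexp correction with an offset of 50 followed by quantile normalization (called normexp), the deposited values, and quantile normalization of the floored levels. Further ones were other filters, the brightest probe, outlier spots kept, bright local background left out, a replicate block, and leaving out each array.

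The members, pathway lists and markers were chosen with earlier results of these data known. The named genes are the 10 members, at most 4 genes per list by the largest range among those well above background on all arrays, and the 3 genes most like the members of largest and smallest range. Replicate numbers coincide with scan dates. Deviations of same-numbered arrays from their label means correlated at -0.81 over genes, so the numbers were not taken to pair the arrays.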

Additional observations from a re-analysis of the deposited data

How the results depend on the processing

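No gene was called between the labels in any setting, over all genes, the 10 members or the pathway lists. At an unadjusted p under 0.05 limma counted 23 of all genes in the setting used, 3 with the deposited log2 values, 11 with normexp, 6 with genes well above background on all arrays, 241 with no filter on dim genes and 22 to 24 in the other processing settings, and no member in any. The replicate block gave 0 calls and 5 genes at an unadjusted p, and a block with the numbers crossed between labels, chosen after seeing the data, gave 0 calls and 183. The difference between labels, HK-2 minus RPTEC/TERT1, changed sign for TGFB2 with normexp (0.04) and with the deposited values (0.81), and with the latter also for TGFBR2 (-0.11) and SMAD3 (-0.08). The cause was not tested. Leaving out each array in turn, where the lone array of a label is assumed to vary like the others, gave no calls and moved the difference over -0.97 to 0.78 for TGFB1, -1.86 to 1.77 for TGFB2, -1.12 to 1.13 for TGFBR2, -1.10 to 1.58 for TGFBR3, -2.02 to 2.61 for INHBA, -0.50 to 0.58 for SMAD3, -1.61 to 1.40 for SMAD7 and 0.17 to 0.67 for TGFBR1. For TGFBI the difference was -0.61 from 1 array per label and -0.27 (SE 1.9, adjusted p = 1 with limma) with outlier spots kept. Among settings that used all 4 arrays and values that kept their sign, the difference of INHBA moved most, from 0.30 to 1.12 with the deposited values. Sizes within a label depended on the processing. Over the settings HK-2 replicate 2 minus replicate 1 ran from 0.41 to 4.62 for INHBA, 0.64 to 3.70 for TGFB2, -2.68 to -0.83 for TGFBR3, -3.01 to -1.99 for SMAD7, -2.25 to -1.68 for TGFBR2, -1.76 to -1.29 for TGFB1, 0.30 to 0.74 for SMAD3 and -1.17 to 0.50 for TGFBR1. RPTEC/TERT1 replicate 1 minus replicate 2 ran from 1.62 to 4.03 for INHBA, 1.35 to 2.53 for TGFB2, -2.27 to -0.57 for TGFBR3, -2.63 to -1.75 for SMAD7, -1.78 to -1.58 for TGFBR2, -0.95 to -0.70 for TGFB1, 1.03 to 1.18 for SMAD3 and 0.15 to 0.47 for TGFBR1. The smallest sizes of INHBA, TGFB2 and TGFBR3 came from normexp or the deposited values. In the deposited values the median HK-2 difference over all genes tested was itself -0.73. In each label 5 or 6 of 8 tested members were over 1 log2 unit apart in most settings. With other numbers tested it was 4 of 6 (genes well above background on all arrays), 6 of 9 (no filter on dim genes) and 7 of 9 (outlier spots kept). Over all genes tested the share was 34% for HK-2 and 40.4% for RPTEC/TERT1 in the setting used, and it was not counted in the others. Signal over background limits INHBA, TGFBR3 and TGFB3, whose low values are bounds.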

Other observations

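Some genes of the pathway lists were measured on 2 arrays only and are named here after their values were seen. BMP4, a ligand of the BMP branch, had levels of 1.27 on HK-2 replicate 1 and 1.23 on RPTEC/TERT1 replicate 2 and lay at the floor on the other arrays, and INHBB, which encodes another activin subunit, had -1.32 and -0.94 there and lay at the floor on the others. INHBB and INHBA were thus measured on different arrays. GREM1, an antagonist of BMP ligands, was well above background on RPTEC/TERT1 replicate 1 (1.73) and HK-2 replicate 2 (1.46), as was the target gene FN1 (-1.05 and -1.46), on the same arrays as INHBA. ACTA2, a target gene that encodes smooth muscle actin, was measured on the other arrays (-1.56 on HK-2 replicate 1 and -1.39 on RPTEC/TERT1 replicate 2). Each of these genes was measured on 1 array of each label, and no difference between the labels was called for any of them.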
